A study of Arabidopsis thaliana with 14 samples.

Results

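Only 5 transporter genes, for nitrate and for metals, could be followed here, each by a single probe set: ZIP6 (AT2G30080), ZIP9 (AT4G33020), MTP11 (AT2G39450), NRAMP5 (AT4G18790) and NRT2.5 (AT1G12940). They were chosen by gene symbol, as the probe sets that the array's annotation assigns to a single gene whose symbol joins a transporter family prefix to a number. Of 22746 probe sets that are not controls, 8730 have no name in the annotation used and could not be matched to a family. A single gene is named for 13513, for 13350 genes in all, and these 5 genes met the rule. The rule named 15 prefixes, among them those of aquaporins and of ammonium, phosphate, sulfate and amino acid carriers. Members were found for 4 of them (NRT, ZIP, NRAMP and MTP), and genes of the other 11 were not analysed here. MTPA1, whose symbol has a letter between prefix and number, fell outside the rule. It lay between 1.79 and 37.2 on all 14 arrays, below the median of every array.

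The samples are seeds of Arabidopsis thaliana, all of accession Ws-0, from plants 38 to 46 days old grown in continuous light. The seeds were at the bending-cotyledon stage, with cotyledons 100 to 140 µm long. Each of 7 groups holds 2 biological replicates. Laser microdissection of fixed, paraffin-embedded sections gave 6 compartments. The filial ones are the embryo proper and 3 endosperm regions, called micropylar, peripheral and chalazal. The maternal ones are the chalazal and the general part of the seed coat. Serial sections of whole seeds form the remaining group. The micropylar endosperm replicates are numbered 1 and 3. One label field calls these samples embryo proper, whereas the title, source and description all place them in the micropylar endosperm, and that grouping was used. Each sample is tissue pooled from sections, so fewer cells of a type and less RNA per cell cannot be told apart.

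The seed coat is maternal tissue, and the vascular strand of the mother plant ends in its chalazal part. No cell connections join the seed coat to the endosperm and embryo, so nutrients leave the maternal cells and are taken up again by the filial ones, with membrane carriers at each step. ZIP proteins (zinc- and iron-regulated transporter-like proteins) move zinc and other divalent metals into the cytosol. MTP proteins of the cation diffusion facilitator family move metals out of it, and MTP11 carries manganese into compartments of the secretory pathway. NRAMP proteins transport manganese, iron and related metals, and NRT2 proteins are high-affinity nitrate carriers.

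Levels are array intensities, not logged, which the authors set to the same trimmed mean on every array. The median probe set had an intensity of 99.0 to 188.1, depending on the array. Group levels are given as mean ± SD with n = 2 arrays. These 2 arrays per group limit the precision. Differences were tested in limma on log2(intensity + 32), in 1 fit over all 14 arrays, and p-values were adjusted over 14765 probe sets, those brighter than the array median on each array of some group. Differences of at least 1 on the log2 scale whose adjusted p was under 0.05 were called. Of the 5 transporters, ZIP6 and MTP11 met that filter, and ZIP9, NRAMP5 and NRT2.5 did not.

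The compartment labels were set against marker lists, of which 4 of 28 embryo, 8 of 20 endosperm and 5 of 28 seed coat genes could be matched to a probe set. The lists were chosen with earlier results of these data known, so a match of markers and labels is no independent check. Summed embryo markers reached 5396 and 5683 on the embryo arrays and at most 1350 on other compartments (peripheral endosperm replicate 2). PAP85, STOMAGEN and YAB3 of this list had their highest means in the embryo. PHV did not: its mean was higher for peripheral endosperm arrays (821.94 ± 49.05) than for embryo arrays (551.6 ± 15.08). Summed seed coat markers reached 35035 to 51314 on the 4 seed coat arrays and at most 2803 on other compartments (micropylar endosperm replicate 3). In the general seed coat the sum was mainly ARA12, at 31182 and 34457. There 4 of the 5 markers were above the array median on replicate 1 and 3 on replicate 2. Summed endosperm markers were at 6139 to 27860 in the micropylar and peripheral endosperm, mainly through SWEET11 and GH9C1. In the chalazal endosperm they summed to only 733.5 and 458.9, below the 1650 to 2162 of the seed coat arrays. These markers thus do not identify that group. AGL62, a MADS-box regulator of early endosperm, was at 4.90 and 3.32 there and at 1.78 and 4.96 in the peripheral endosperm. It was below the median of every array, as were AGL91, AGL96, IKU2 and MPC. IKU1 of the same list had its highest mean, 863.4, in the chalazal seed coat.

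ZIP6 was a transcript of the seed coat and above all of its chalazal part. Its level was 6557 ± 77.7 in the chalazal seed coat and 1455 ± 81.9 in the general seed coat, a 4.51-fold ratio of means. On the chalazal seed coat arrays it stood at 6502 and 6612, above 98.4% and 98.5% of all probe sets. On the general seed coat arrays it stood at 1397 and 1513. No array of another compartment reached the general seed coat values.

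In the filial compartments ZIP6 was dim, with the micropylar endosperm as the exception. The micropylar replicates lay far apart, at 154.1 (replicate 1) and 722.2 (replicate 3). The chalazal endosperm arrays gave 112.8 and 62.9. In the embryo proper the values were 53.6 and 39.1, and in the peripheral endosperm 7.52 and 12.0. Embryo, peripheral endosperm and chalazal endosperm values were thus all below the median of their own arrays. Whole seeds, in which all compartments are mixed, had values of 487.6 and 250.8.

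**Figure D1:**
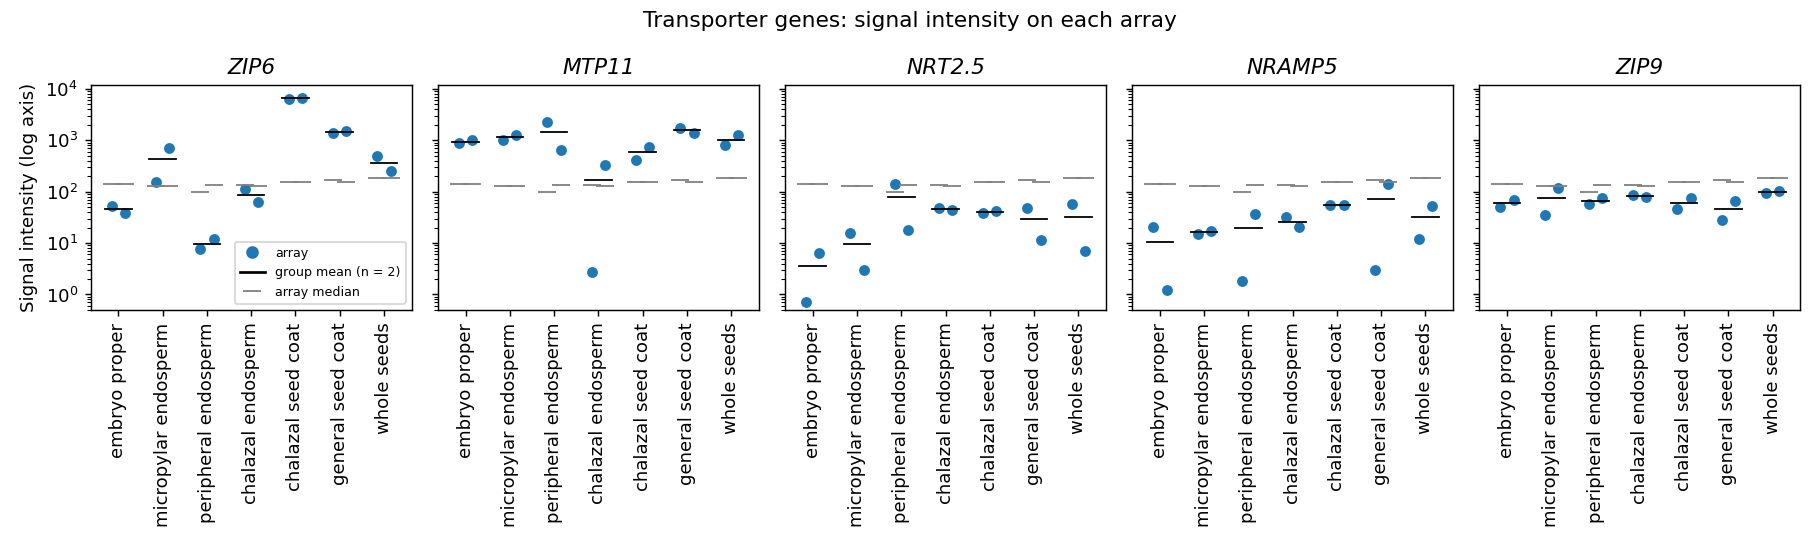
Signal intensity (log axis) of the 5 transporter genes on each of the 14 arrays, by group. Points are arrays, black lines are group means (n = 2) and grey marks are array medians. ZIP6 peaks at 6502 and 6612 in the chalazal seed coat, MTP11 is above the array median on 13 of 14 arrays, and NRT2.5, NRAMP5 and ZIP9 are below it with the exception of 1 NRT2.5 value.

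Both tested transporters varied across the 6 compartments in limma's moderated F test, which 72.4% of all probe sets tested also passed. For ZIP6 the adjusted p was 5.4e-08 and the range between the highest and the lowest compartment was 7.30 on the log2 scale. Only 1.04% of probe sets tested had a larger range. For MTP11 the adjusted p was 0.00256 and the range 3.82, which 16.1% of probe sets exceeded.

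Enrichment in a compartment, a level above each of the other 5, was called for ZIP6 in the chalazal seed coat and for MTP11 in none. Of all probe sets tested, 13.0% were enriched somewhere. By compartment the share was 2.79% for the chalazal seed coat, 2.50% for the general seed coat, 2.77% for the embryo proper, 4.08% for the chalazal, 0.549% for the peripheral and 0.345% for the micropylar endosperm. The next-highest compartment for ZIP6 was the general seed coat, from which it differed by 2.15 ± 0.56 (SE) on the log2 scale (limma, adjusted p = 0.0128). Between these seed coat regions 8.25% of probe sets were called higher and 8.17% lower in the chalazal one. The call rests on all 4 arrays of this pair: without any 1 of them the difference stayed between 2.09 and 2.21, but the adjusted p rose to between 0.057 and 0.0738. With log2(intensity + 1) the difference was 2.17 and the adjusted p 0.0552.

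The mean of the seed coat regions exceeded the mean of the embryo and endosperm groups for ZIP6 by 4.84 ± 0.34 (SE) on the log2 scale (limma, adjusted p = 8.27e-09). The median difference over all probe sets tested was 0.05, with 18.9% called higher and 15.9% lower in the seed coat. The ZIP6 difference held without each array in turn, at 4.59 to 5.09.

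The order of ZIP6 levels ran from the chalazal seed coat through the general seed coat, the micropylar endosperm, the chalazal endosperm and the embryo proper to the peripheral endosperm. Of the 15 compartment pairs, 13 were called, against a median of 4 over all probe sets tested. Neighbours in that order at the upper end differed: the micropylar endosperm minus the general seed coat was -1.99 on the log2 scale (limma, adjusted p = 0.0124), lower for 14.6% of probe sets. The micropylar minus the chalazal endosperm was 1.68 (limma, adjusted p = 0.0261), higher for 19.3%. The embryo minus the chalazal endosperm, at -0.59 (limma, adjusted p = 0.437, 95% interval -1.77 to 0.60), and the embryo minus the peripheral endosperm, at 0.90 (limma, adjusted p = 0.267, interval -0.28 to 2.09), were not called.

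Against the chalazal seed coat, the ZIP6 difference was -7.30 for the peripheral endosperm, -6.40 for the embryo proper, -5.81 for the chalazal endosperm and -4.14 for the micropylar endosperm, with adjusted p in limma of 2.44e-05 or less. The shares of all probe sets called lower in these pairs were 20.1%, 20.9%, 18.4% and 17.1%. ZIP6 was thus far below the chalazal seed coat in every filial region. Against the general seed coat, the difference was -5.16 for the peripheral endosperm, -4.25 for the embryo and -3.66 for the chalazal endosperm, where 17.2%, 17.9% and 19.8% of probe sets were called lower. The embryo also had less ZIP6 signal than the micropylar endosperm, by -2.26 (limma, adjusted p = 0.00916), lower for 9.09% of probe sets. Of the 13 pairs, 7 were called without each array in turn, and those 7 each set a seed coat region against a filial one. The peripheral minus the chalazal endosperm, at -1.49 (limma, adjusted p = 0.0466, lower for 18.0% of probe sets), was called in 2 of 14 such fits. Calls between the micropylar endosperm and its neighbours also rest on single arrays: the one with the general seed coat was lost without micropylar replicate 1 or general seed coat replicate 2, and those with the embryo and with the chalazal endosperm without micropylar replicate 3 or replicate 2 of the other group.

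**Figure D2:**
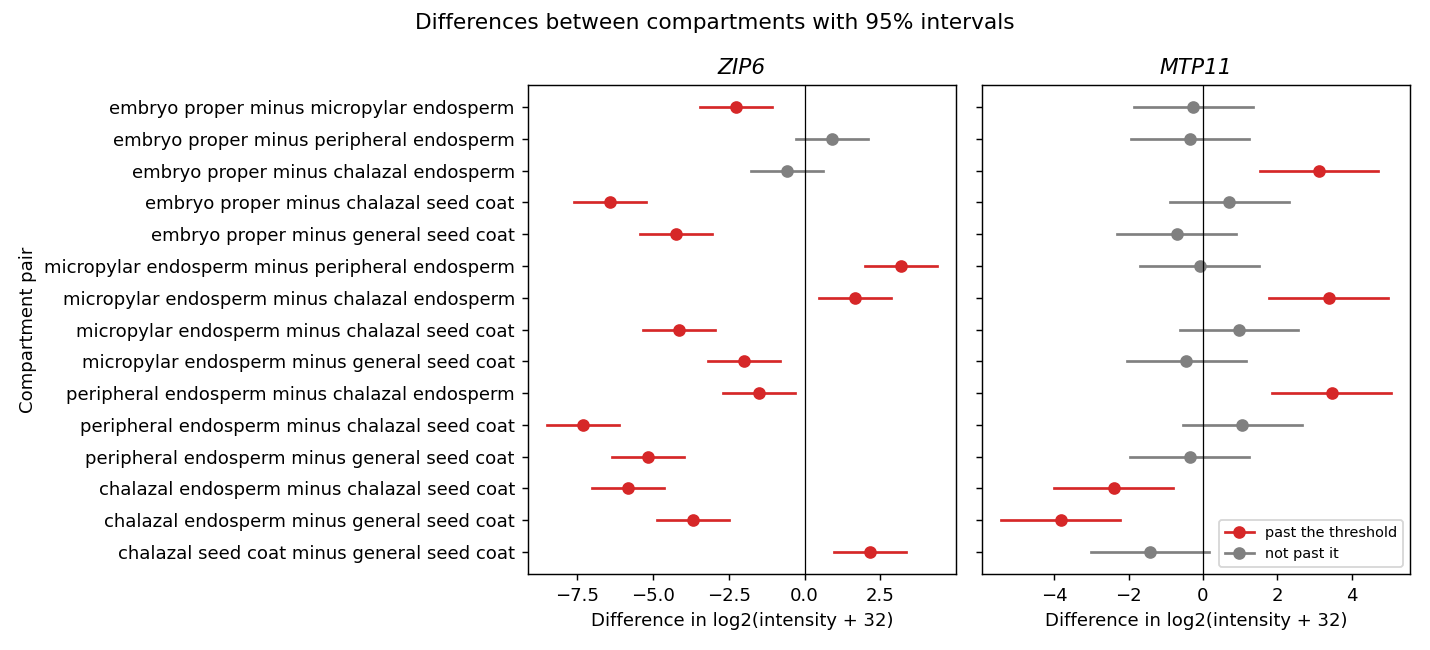
Difference in log2(intensity + 32) between the groups of each of the 15 compartment pairs, for ZIP6 and MTP11, with 95% intervals from limma. Red marks pairs past the threshold: 13 for ZIP6, where the largest sets the peripheral endosperm against the chalazal seed coat, and 5 for MTP11, all with the chalazal endosperm.

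Within the endosperm, ZIP6 was higher in the micropylar than in the peripheral region, by 3.17 ± 0.56 (SE) on the log2 scale (limma, adjusted p = 0.00373). Of all probe sets, 4.05% were called higher and 2.26% lower in the micropylar region. Amplification started from 2 to 5 ng of RNA for the micropylar endosperm and from 5 to 6 ng elsewhere. Region and RNA input thus cannot be told apart in any comparison with the micropylar endosperm. The ZIP6 call was lost without micropylar endosperm replicate 3, where the difference was 2.16 and the adjusted p 0.0822. The gap between the micropylar replicates was 2.02 on the log2 scale, which 1.58% of probe sets tested exceeded in that group.

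The seed coat markers were not uniformly higher on that replicate. DFR, dihydroflavonol reductase of flavonoid synthesis, was at 413.6 on micropylar replicate 1 and 1050 on replicate 3. AT3G50990, listed as the peroxidase PER36, was at 24.9 and 110.7. BAN, anthocyanidin reductase, was at 122 and 90.3, ARA12, a subtilase of the mucilage layer, at 1971 and 1510, and the sugar exporter SWEET10 at 45.1 and 42.5. Over the 5 markers the sum was 2576 on replicate 1 and 2803 on replicate 3, with 2 of 5 above the array median on each. Embryo markers summed to 497.7 and 1162. The part of neighbouring tissue in the ZIP6 values of the micropylar endosperm was not tested.

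The seed coat markers were not all brightest in the same seed coat region. SWEET10 was at 16152 ± 304.8 in the chalazal and 23.4 ± 4.87 in the general seed coat. AT3G50990 was at 4962 ± 742 and 144 ± 37.7. DFR was at 6577 ± 181 and 2559 ± 477.7, and BAN at 2438 ± 253.7 and 651.7 ± 160.9. ARA12 had the opposite order, at 18263 ± 3519 and 32819 ± 2316. Like ZIP6, 4 of the 5 markers thus had their higher mean in the chalazal seed coat, and DFR and BAN, again like ZIP6, were above the array median on all 4 seed coat arrays.

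**Figure D3:**
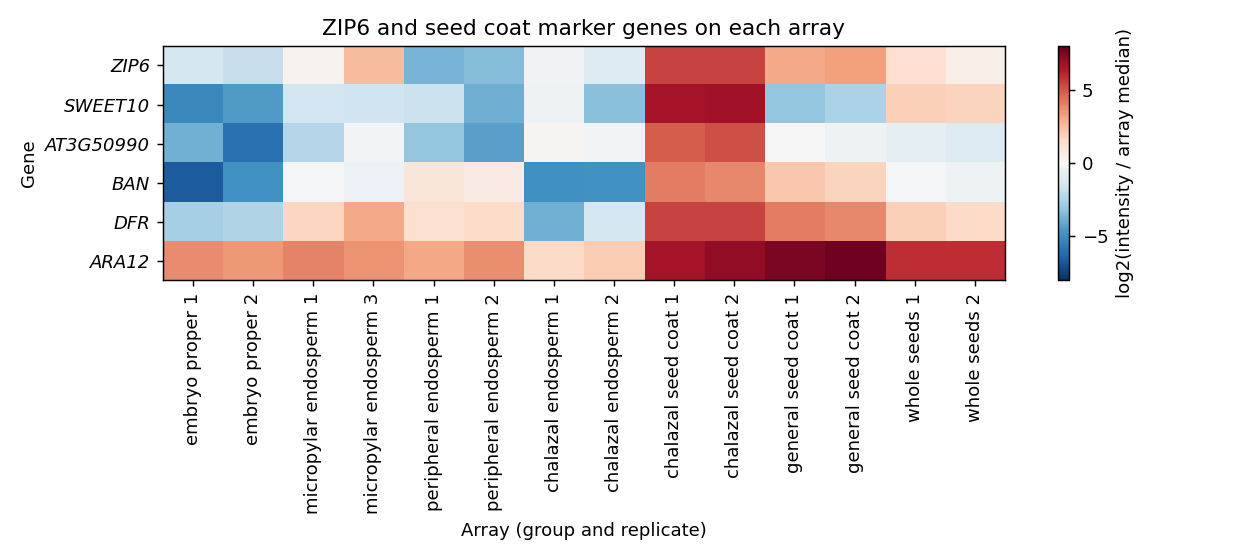
ZIP6 and 5 seed coat markers on each of the 14 arrays, as log2 of the intensity over the array median (colour, from blue below to red above the median). ZIP6 is above the median on the seed coat, micropylar endosperm and whole-seed arrays, and SWEET10 is above it on the chalazal seed coat and whole-seed arrays.

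MTP11 was above the array median in every compartment, with 1 chalazal endosperm array as the exception, and was lowest in the chalazal endosperm. Its level was 1567 ± 252 in the general seed coat, 1445 ± 1143 in the peripheral endosperm, 1138 ± 160 in the micropylar endosperm, 943 ± 101 in the embryo proper and 584.2 ± 234 in the chalazal seed coat. In the chalazal endosperm it was 166.4 ± 231. Whole seeds had 1038 ± 338. The median MTP11 value over the 14 arrays was 943, and on the median array it stood above 83.8% of all probe sets.

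Array by array, MTP11 was at 1745 and 1388 in the general seed coat and at 2253 and 637.4 in the peripheral endosperm. In the micropylar endosperm it was at 1025 and 1251, and in the embryo proper at 871.8 and 1014. The chalazal seed coat arrays gave 418.5 and 749.8, and the whole-seed arrays 798.7 and 1277. Both chalazal endosperm values, 2.79 (replicate 1) and 330.1 (replicate 2), were below every other array, but they disagreed strongly with each other. Their gap of 3.38 on the log2 scale was exceeded in that group by 0.0542% of probe sets tested.

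Set against the other 2 endosperm regions, MTP11 was lower in the chalazal one, with a log2 difference of -3.42 ± 0.65 (SE; limma, adjusted p = 0.000489). Of all probe sets tested, 19.4% were called lower and 19.6% higher there. The size depends on which chalazal endosperm array is used. It was -1.73 with an adjusted p of 0.0247 without replicate 1, and -5.11 with 9.47e-06 without replicate 2.

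Each of the 5 compartment pairs that include the chalazal endosperm was called for MTP11, and none of the other 10, against a median of 4 pairs over all probe sets. The embryo proper, the micropylar and the peripheral endosperm minus the chalazal endosperm gave 3.12, 3.38 and 3.46 on the log2 scale, with adjusted p in limma of 0.00345 or less. The shares of all probe sets called higher in these pairs were 20.4%, 19.3% and 17.0%. The chalazal endosperm minus the general seed coat was -3.82 (limma, adjusted p = 0.000692), lower for 19.8%. The chalazal seed coat was the next-lowest compartment, and the chalazal endosperm minus it was -2.40 (limma, adjusted p = 0.0197), lower for 18.4%. Without chalazal endosperm replicate 1, 3 of the 5 calls were made. The calls against the embryo and against the chalazal seed coat were lost. The latter was also lost without chalazal seed coat replicate 2.

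No pair among the other 5 compartments passed the test for MTP11. Their means ran from the general seed coat through the peripheral endosperm, the micropylar endosperm and the embryo to the chalazal seed coat. Between the chalazal and the general seed coat the log2 difference was -1.42, with a 95% interval of -3.01 to 0.17 and an adjusted p of 0.225 in limma. This interval includes differences of more than 2-fold, so it does not show equal levels.

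The contrasts that average the chalazal endosperm with other groups depended for MTP11 on which of its arrays was used. Between the seed coat and the filial compartments the log2 difference was 0.63, with a 95% interval of -0.35 to 1.60 (limma, adjusted p = 0.282). It was 1.05 and called without chalazal endosperm replicate 2 (adjusted p = 0.0135), and 0.20 without replicate 1 (adjusted p = 0.623). Between the embryo and the mean of the endosperm regions it was 0.84, with an interval of -0.47 to 2.14 (limma, adjusted p = 0.337). It was 1.40 and called without chalazal endosperm replicate 2 (adjusted p = 0.0231), and 0.27 without replicate 1 (adjusted p = 0.664). For ZIP6 the embryo minus endosperm difference was -0.65, with an interval of -1.62 to 0.32. In that contrast 14.6% of probe sets were called higher and 10.9% lower in the embryo.

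In the seed coat, the values of ZIP6 and MTP11 lay in opposite order. ZIP6 had its higher mean in the chalazal part and MTP11 in the general part, and the MTP11 difference was not called. Both had a lower mean in the chalazal endosperm than in the chalazal seed coat it faces, with the differences of -5.81 and -2.40 given above. The ZIP6 means of the embryo and the peripheral endosperm, 46.4 and 9.75, were below the 87.8 of the chalazal endosperm. MTP11 on chalazal endosperm replicate 2, at 330.1, was above the median of its array. The chalazal effect in the seed coat minus that in the endosperm was 2.24 for ZIP6 (limma, adjusted p = 0.0367) and 2.00 for MTP11 (adjusted p = 0.158), a comparison added after the values were seen, in which 23.8% of probe sets were called. The endosperm effect of ZIP6 averages opposite differences from the micropylar and the peripheral region. Without both micropylar endosperm arrays, so against the peripheral endosperm alone, the ZIP6 value was 0.66 with an adjusted p of 0.507 in limma. The MTP11 value turned on the chalazal endosperm arrays: it was 3.69 and called without replicate 2 (limma, adjusted p = 0.00382), and 0.31 without replicate 1 (adjusted p = 0.799).

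The difference of whole seeds from the mean of the 6 compartments was called neither for ZIP6, with a log2 difference of 0.20 (95% interval -0.71 to 1.10, adjusted p = 0.837 in limma), nor for MTP11, with 0.52 (interval -0.70 to 1.74, adjusted p = 0.653). The median over all probe sets tested was 0.16, and 6.37% were called higher and 1.06% lower in whole seeds. The share of each compartment in the whole-seed sections is not known from these data.

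NRT2.5, NRAMP5 and ZIP9 gave dim signals in every compartment. No detection calls were used, so a signal this low was not separated from background. NRT2.5, a high-affinity nitrate carrier that is known from nitrogen-starved plants, ranged from 0.70 (embryo proper replicate 1) to 139.2 (peripheral endosperm replicate 1), with a median of 28.5. That highest value was the only one above the median of its array. The other peripheral endosperm array gave 17.7. The chalazal endosperm had 47.7 and 44.5, the chalazal seed coat 39.3 and 42.8, the micropylar endosperm 15.9 and 2.99, and the embryo proper 0.70 and 6.46. The general seed coat had 47.5 and 11.3 and whole seeds 56.9 and 6.94. The embryo values were thus low and those of the chalazal groups close together, but most groups overlapped.

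NRAMP5, whose rice namesake takes up manganese and cadmium in roots, ranged from 1.20 to 138.6 with a median of 20.5 and was below the array median on all 14 arrays. Its highest value came from general seed coat replicate 2, while replicate 1 was at 2.95. The chalazal seed coat arrays lay close together, at 55.4 and 55.0. The chalazal endosperm had 31.7 and 20.7 and the micropylar endosperm 15.1 and 17.3. The peripheral endosperm had 1.82 and 36.8 and the embryo proper 20.2 and 1.20. Whole seeds had 12.1 and 52.4. The general seed coat replicates thus enclosed every other NRAMP5 value apart from the 1.20 and 1.82.

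ZIP9, a ZIP family gene that responds to zinc deficiency, ranged from 28.3 to 117.1 with a median of 71.7, below the array median on all 14 arrays. Its group means ran from 46.9 ± 26.4 in the general seed coat, where ZIP6 was bright, to 98.8 ± 6.68 in whole seeds. Without the filter on dim probe sets, none of these 3 genes was called in limma in the F test, in any of the 6 contrasts or in any of the 15 pairs. The lowest unadjusted p of the F test was 0.163 (NRT2.5), and the lowest adjusted p in a pair was 0.132 (NRT2.5), 0.239 (NRAMP5) and 0.496 (ZIP9). The dim signal of ZIP9 thus gave no counterpart to the ZIP6 pattern that passed the test.

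A list of 116 further symbols of transporters for metals, potassium, phosphate, amino acids, peptides and boron, among others, was also searched. The only probe set matched belongs to BAT1, at AT4G31910, a brassinosteroid acyltransferase that shares its symbol with an amino acid carrier, so no transporter of that list was analysed here.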

How the data were processed

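The authors deposited an intensity for each probe set, computed in GCOS, which the submitters' processing notes name without a version. As found from the values, the authors scaled each of the 14 arrays to a 2% trimmed mean of 500. Amplification started from 2 to 5 ng of RNA for the micropylar endosperm and from 5 to 6 ng elsewhere, per the labels' protocols. Of 22810 probe sets, 64 controls were left out.

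Samples were grouped by their descriptions. Values were fitted as log2(value + 32) in limma 3.58.1 (R 4.3.3) with an intensity trend and 7 residual degrees of freedom. The filter on dim probe sets kept 64.9% (14765). P-values were adjusted by Benjamini-Hochberg in each comparison: the F test, enrichment over each of 5 compartments (the largest of the 5 adjusted p is given), 6 contrasts and 15 pairs. On this scale the fold changes of low signals are understated. Genes named are those enriched, those called in a contrast and the brightest of each family; ZIP9 is given by its range. The fits were tested on simulated data. The members, the gene lists and the markers were chosen with earlier results of these data known. The pair counts and the comparison of chalazal effects were added after the values were seen. Gene names come from GEO's platform annotation, and all 5 matched the RefSeq TAIR10.1 table, used for names only. No column was left out. Replicates are biological, per the labels. Alternatives were another pseudocount, no filter, quantile normalization, no trend, a replicate block and leaving out arrays.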

Additional observations from a re-analysis of the deposited data

Results flagged for a closer look

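With the other endosperm regions averaged, the effect of chalazal position on ZIP6 differed between the seed coat and the endosperm. A test of the difference itself in limma called it. The chalazal minus the general seed coat gave a log2 difference of 2.15, and the chalazal endosperm minus the mean of the other endosperm regions gave -0.09. That -0.09 averages opposite differences: the micropylar minus the chalazal endosperm was 1.68 and the peripheral minus the chalazal endosperm -1.49. Against the peripheral region alone, the chalazal endosperm thus had the higher mean, as the chalazal seed coat had against the general one. Between seed coat and averaged endosperm, the effects differed by 2.24 ± 0.74 (SE; limma, adjusted p = 0.0367). Of all probe sets tested, 23.8% were called in this comparison. The call was lost without chalazal endosperm replicate 2 (1.94, adjusted p = 0.124), without micropylar endosperm replicate 3 (1.74, adjusted p = 0.0609), without any 1 of the 4 seed coat arrays (adjusted p between 0.0837 and 0.0975), with log2(value + 1) (1.65, adjusted p = 0.231), with the replicate number as a block (1.68, adjusted p = 0.0743) and without both micropylar endosperm arrays (0.66, adjusted p = 0.507). For MTP11 the same difference was 2.00 with an adjusted p of 0.158 in limma, and it was not stable: without chalazal endosperm replicate 2 it was 3.69 and called (adjusted p = 0.00382), and without replicate 1 it was 0.31 (adjusted p = 0.799). The block fits micropylar endosperm replicate 3 with a term of its own, so its result is close to that without this array. Groups of 2 arrays are too small to look for a single array that stands apart.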

How the results depend on the processing

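Counts of transporters called kept their value under most alternatives. With log2(value + 1), 0 instead of 1 were enriched in a compartment and 0 instead of 1 were higher in the chalazal than the general seed coat. Leaving out each array in turn, these counts ran from 0 to 1 and from 0 to 1, the count higher in the seed coat from 1 to 2, the count higher in the embryo than the endosperm from 0 to 1 (both through MTP11, without chalazal endosperm replicate 2) and the count higher in the micropylar than the peripheral endosperm from 0 to 1. Without both micropylar arrays, 1 instead of 0 was higher in the chalazal than the remaining endosperm region (ZIP6).

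With the replicate number as a block, 0 instead of 1 were higher in the micropylar than the peripheral endosperm (ZIP6, 2.04, adjusted p = 0.116). Number 3 belongs to a single array, micropylar replicate 3, which the block therefore fits with a term of its own. The block thus comes close to leaving that array out, where the ZIP6 difference was 2.16. Deviations of the 6 groups numbered 1 and 2 correlated with r between -0.03 and 0.05 over 15 pairs of groups. No shift shared by number was thus seen in these groups, which leave out the micropylar endosperm. Whether samples of the same number were handled together cannot be told from this. The block changed no other count of transporters called, and 10 instead of 13 compartment pairs were called for ZIP6.

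Some differences that were not called in the main fit changed sign. For ZIP6 in the chalazal against the other endosperm regions the main value of -0.09 became 0.52 with log2(value + 1), 0.47 with the block, 1.49 without both micropylar arrays and -0.60 to 0.41 without single arrays. For ZIP6 in the embryo against the endosperm, -0.65 became 0.16 without both micropylar arrays. For ZIP6 in whole seeds, 0.20 became -0.12 with log2(value + 100), -0.073 with quantile normalization and -0.24 to 0.64 without single arrays. For MTP11 in the micropylar against the peripheral endosperm, -0.09 became 0.019 with the block and -0.97 to 0.80 without single arrays. Without both micropylar arrays, the endosperm mean in these contrasts no longer holds that region. The first contrast then sets the chalazal against the peripheral endosperm only, so these are different comparisons. The cause of the other changes was not tested. Dim signals limit the precision of all values below the array median.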

Other observations

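By a choice made after the values were seen, the single-gene probe sets whose profile was most like that of ZIP6 were looked up, as Pearson's r of log2(intensity + 32) over the 14 arrays, among 8174 tested. These arrays form 7 groups and share the same scaling, so r is a description. BRH1 came first with r = 0.964, at 2354 ± 382 in the chalazal and 1251 ± 122 in the general seed coat. AT5G63180 followed with r = 0.955, at 2367 ± 252 and 1996 ± 42.9, and AT2G21185 with r = 0.946, at 2348 ± 288 and 697.7 ± 162.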
